A study of Mus musculus with 9 samples.

Results

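The subject was a set of 10 chemokine ligand genes of mouse macrophages: Ccl2, Ccl3, Ccl4, Ccl6, Ccl7, Ccl9, Cxcl2, Cxcl10, Cxcl14 and Cxcl16. They were picked by symbol, each matched 1 row, and they make up 10 of the 24607 genes in the deposited table. The macrophages were differentiated out of bone marrow that carried the CX3CR1-gfp/+ genotype (green fluorescent protein in an allele of the fractalkine receptor gene), with macrophage colony-stimulating factor at 50 ng/ml. They were then kept together with neurons from dorsal root ganglia (co-culture), given TGF-β at 0.02 ng/ml, or left alone (monoculture). All 3 groups share the genotype and the growth factor, every library is labelled with 5 days, and cells were sorted on CD11b and CD64 before sequencing, with 3 libraries a group. Whether the 5 days are the differentiation, the treatment or both is not clear from the labels, and neither is whether the same 3 mice served every group. The study's title concerns the imprint that sensory neurons leave on nearby macrophages through TGF-β, so that co-culture and TGF-β were each set against monoculture and against each other.

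Chemokines are small secreted proteins that direct the migration of leukocytes by binding G protein-coupled receptors. Ccl2 and Ccl7 bind Ccr2 and call in monocytes, Ccl3 and Ccl4 are macrophage inflammatory proteins that draw monocytes and T cells, and Ccl6 and Ccl9 are rodent ligands of Ccr1, which Ccl3 binds too. Cxcl2 draws neutrophils through Cxcr2, Cxcl10 draws T cells through Cxcr3 after interferon, Cxcl16 is made as a membrane protein that binds Cxcr6, and Cxcl14 is a tissue chemokine made without inflammation.

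Of the 10 ligands, 5 fell and 2 rose in co-culture against monoculture. With TGF-β Cxcl14 and Cxcl16 rose and none was called lower by limma, although 5 were lower at its unadjusted p under 0.05. The 5 that fell in co-culture were Ccl2, Ccl3, Ccl4, Ccl9 and Cxcl2, by 1.97- to 3.77-fold, and the 2 that rose were Cxcl14, by 3.14-fold, and Cxcl16, by 2.54-fold. Ccl6, Ccl7 and Cxcl10 were not called in any of the 3 comparisons. Values are normalized counts (gene reads divided by a size factor per library), and a gene is called when limma's adjusted p (Benjamini-Hochberg over the 16328 genes tested) is under 0.05. All 10 ligands were tested, and all 10 passed the minimum level in the TGF-β and monoculture libraries alone. Of all genes tested, 30.8% were called for co-culture against monoculture (15% lower and 15.9% higher), beside 7 of the 10 ligands. Far fewer, 2.52%, were called for TGF-β against monoculture (1.39% lower and 1.13% higher), beside 2 of the 10 ligands.

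**Figure D1:**
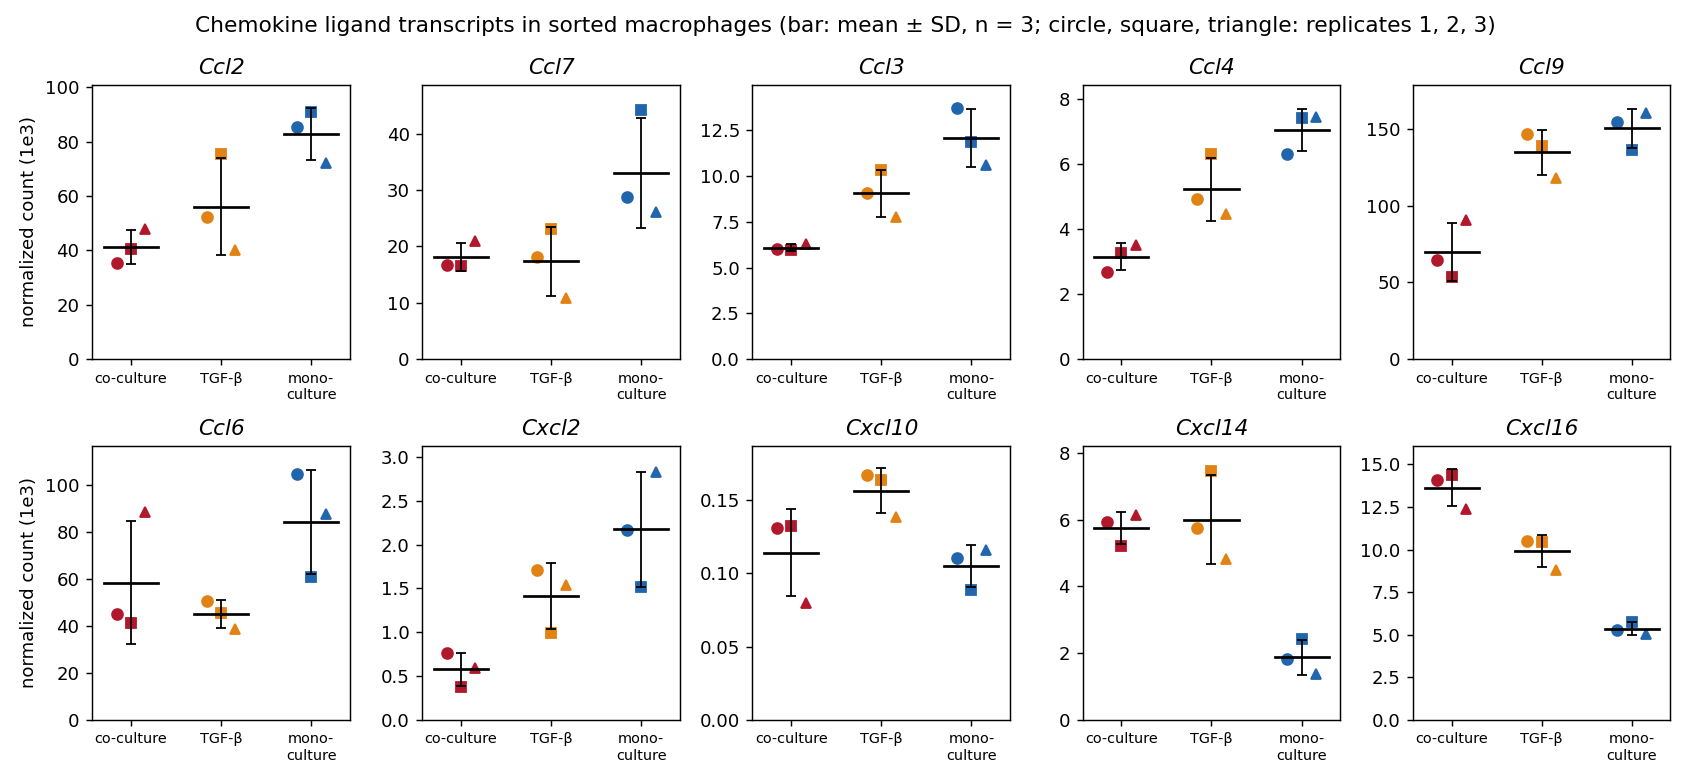
Normalized counts, in units of 1e3 on linear axes from 0, of the 10 ligands in co-culture, TGF-β and monoculture libraries, with a bar at the mean, whiskers of 1 SD (n = 3) and a symbol per replicate number. Cxcl16 separates all 3 groups, with 12401 to 14385 in co-culture, 8801 to 10494 under TGF-β and 5027 to 5774 in monoculture, while Cxcl14 separates monoculture from the other groups.

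The promoters of 4 ligands are shown because their genes took different courses: Cxcl2 and Ccl9 fell in co-culture, Cxcl14 rose, and Cxcl10 was not called. Each is 300 bases long, 250 before the RefSeq start and 50 after it, 5′ to 3′ on the gene's strand, from RefSeq on GRCm38.p6, in which 6 of the 10 ligands had an entry. Capitals mark matches to the motifs named below.
Cxcl2, chr5:90903649-90903948, plus strand: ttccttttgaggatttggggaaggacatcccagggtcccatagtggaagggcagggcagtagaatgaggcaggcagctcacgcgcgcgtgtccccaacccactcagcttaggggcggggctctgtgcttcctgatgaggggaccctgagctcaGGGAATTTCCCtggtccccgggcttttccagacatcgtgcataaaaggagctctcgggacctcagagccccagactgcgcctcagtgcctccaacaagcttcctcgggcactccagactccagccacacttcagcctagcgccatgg
Ccl9, chr11:83578587-83578886, minus strand: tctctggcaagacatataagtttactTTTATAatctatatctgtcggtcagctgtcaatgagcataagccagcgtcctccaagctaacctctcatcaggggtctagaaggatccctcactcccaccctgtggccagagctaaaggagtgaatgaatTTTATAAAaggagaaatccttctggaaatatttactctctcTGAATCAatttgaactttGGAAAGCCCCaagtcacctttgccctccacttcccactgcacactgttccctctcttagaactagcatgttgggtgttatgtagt
Cxcl10, chr5:92348840-92349139, minus strand: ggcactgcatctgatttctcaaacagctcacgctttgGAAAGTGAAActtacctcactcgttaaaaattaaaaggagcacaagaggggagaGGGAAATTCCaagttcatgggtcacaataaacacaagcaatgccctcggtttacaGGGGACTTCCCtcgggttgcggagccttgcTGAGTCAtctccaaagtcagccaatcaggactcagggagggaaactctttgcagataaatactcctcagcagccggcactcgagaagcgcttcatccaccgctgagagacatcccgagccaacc
Cxcl14, chr13:56296502-56296801, minus strand: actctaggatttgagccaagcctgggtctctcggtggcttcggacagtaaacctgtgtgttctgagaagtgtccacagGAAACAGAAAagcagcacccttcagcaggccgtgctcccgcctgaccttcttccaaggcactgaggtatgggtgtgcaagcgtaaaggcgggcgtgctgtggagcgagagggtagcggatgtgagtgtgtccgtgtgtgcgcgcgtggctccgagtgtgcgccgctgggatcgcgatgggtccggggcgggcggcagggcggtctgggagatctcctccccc

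The plus and minus strands were searched for the NF-κB consensus, the interferon response core (GAAA, any 2 bases, GAAA), the AP-1 site TGANTCA, the SMAD palindrome GTCTAGAC, the PU.1 site GAGGAAGT and the TATA box TATAAA. Cxcl2 held overlapping NF-κB matches on the 2 strands, of which GGGAATTTCC began 97 bases before the start. Cxcl10 held the NF-κB matches GGGAAATTCC at 159 bases and GGGGACTTCC at 104 bases before the start, and a further match overlapped GGGGACTTCC. It also held an interferon core (GAAAGTGAAA) at 213 and an AP-1 site (TGAGTCA) at 74. Ccl9 held an NF-κB match on the other strand (GGAAAGCCCC) at 35 and an AP-1 site (TGAATCA) at 53. Its matches to the TATA box letters began 224 and 94 (both on the other strand) and 92 bases before the start. Cxcl14 held 1 interferon core (GAAACAGAAA), and the promoters of Ccl3 and Ccl6 had none of the 6 motifs in this window. Among 32851 RefSeq promoters of this length, 8.46% held the NF-κB consensus, 3.44% the interferon core, 7.81% the AP-1 site, 0.213% the SMAD palindrome, 3.20% the PU.1 site and 13.6% the TATA box. These matches describe letters and were not tied to binding or to the changes.

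The libraries held 46.8 to 308.8 M reads (M, 1e6). The macrophage genes Csf1r, Itgam, Fcgr1 and Cd68 were expressed and not called, and 3 of the 10 macrophage markers were higher in co-culture and 1 lower. Fibroblast markers differed: 14 of 14 tested were higher in co-culture than in monoculture, only 3 passed the minimum level outside co-culture, and their summed level was 8652 to 12999 normalized counts in co-culture, 45.1 to 220.7 under TGF-β and 49.6 to 179.6 in monoculture. Pdgfra, Mfap5, Lum and Thy1 were at 0 in all monoculture libraries, and Mfap5, Dcn, Lum, Thy1 and Fbln1 were at 0 in all TGF-β libraries. Sparc, Col1a1 and Col1a2 averaged 39.8, 24.4 and 18.0 normalized counts with TGF-β, and 27.3, 24.1 and 28.8 in monoculture. Of 13 glial markers, of which 5 passed the minimum level outside co-culture, 9 were higher and 3 lower in co-culture than in monoculture. Their sums were 19853 to 26290 in co-culture, 53761 to 57646 under TGF-β and 63086 to 78724 in monoculture. The myelin gene Pmp22, which was lower, made most of that sum (17377 ± 2987 normalized counts in co-culture, 49971 ± 2433 with TGF-β and 64829 ± 7487 in monoculture), whereas the glial gene Sox10 was higher (147 ± 62.0 in co-culture, 0 in every TGF-β library and 0.258 ± 0.447 in monoculture). Of 4 neuronal markers tested 1 was higher and 1 lower, with sums of 606 to 842 in co-culture, 8083 to 10745 under TGF-β and 8760 to 10043 in monoculture. Uchl1, the lower one, made most of that sum (514 ± 72.0 in co-culture, 9202 ± 1361 with TGF-β and 9141 ± 734 in monoculture), whereas the neuronal tubulin Tubb3 was higher (92.4 ± 8.03 in co-culture, 11.2 ± 4.06 with TGF-β and 27.0 ± 24.9 in monoculture). Endothelial markers had 3 higher and 2 lower of 5, monocyte markers 1 and 1 of 5, and lymphoid and mast cell markers 0 and 1 of 1, while none of 2 neutrophil and 2 dendritic cell markers was called by limma. The part of these other cells in the ligand values was not tested. Reads of the mitochondrial ribosomal RNAs, whose part was not tested either, were 12.3% to 15.0% of a co-culture library, 11.5% to 14.9% of a TGF-β library and 10.4% to 11.5% of a monoculture library.

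Ccl2 and Ccl7 are the monocyte attractants of the set. Ccl2 (ENSMUSG00000035385, chr11:82035571-82037453, plus strand, mm10) had 35342, 40348 and 47975 normalized counts in co-culture libraries 1 to 3, 52366, 75378 and 40298 with TGF-β, and 85339, 90815 and 72271 in monoculture. The co-culture libraries all lay below the monoculture libraries, while the TGF-β libraries overlapped both. Ccl2 fell in co-culture against monoculture (log2 fold change −1.01 ± 0.21 SE, adjusted p = 0.0035). Against monoculture, the TGF-β value of −0.61 ± 0.21 (95% interval −1.06 to −0.15) did not pass (adjusted p = 0.184), and without TGF-β library 2 it was −0.84 with an adjusted p of 0.0148. Co-culture against TGF-β gave −0.41 ± 0.21 (95% interval −0.86 to 0.05, adjusted p = 0.190), and −0.62 with an adjusted p of 0.0223 without TGF-β library 3.

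Ccl7, the other Ccr2 ligand, lies 8258 bases from Ccl2 (ENSMUSG00000035373, chr11:82045712-82047525, plus strand). It had 16731, 16486 and 20929.8 normalized counts in co-culture, 18182, 23008 and 10874 with TGF-β, and 28754, 44210.2 and 26129.5 in monoculture. All co-culture and all TGF-β libraries lay below all monoculture libraries, and no call was made. Co-culture against monoculture was −0.84 ± 0.30 (95% interval −1.53 to −0.15, adjusted p = 0.0684), and it passed without TGF-β library 2 (adjusted p = 0.0430) or library 3 (0.0174) and with DESeq2 (0.0258). TGF-β against monoculture was −0.96 ± 0.30 (adjusted p = 0.171), and co-culture against TGF-β was 0.11 ± 0.30 (95% interval −0.57 to 0.80).

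The macrophage inflammatory proteins Ccl3 and Ccl4 had the smallest standard errors among the ligands that fell. Ccl3 (ENSMUSG00000000982, chr11:83647844-83649355, minus strand) had 6006, 5940.2 and 6312 normalized counts in co-culture, 9092, 10329 and 7749 with TGF-β, and 13743, 11872 and 10614 in monoculture, so that the 3 groups did not overlap. It fell in co-culture against monoculture (−0.98 ± 0.11, adjusted p = 9.94e-06) and against TGF-β (−0.56 ± 0.11, adjusted p = 0.00175). TGF-β against monoculture gave −0.42 ± 0.11 (95% interval −0.66 to −0.18, adjusted p = 0.07), and without TGF-β library 2 it gave −0.52 (adjusted p = 0.0388).

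Ccl4, 13228 bases away on the other strand (ENSMUSG00000018930, chr11:83662584-83664683), had 2686, 3271 and 3504 normalized counts in co-culture, 4931, 6317 and 4456 with TGF-β, and 6302, 7434 and 7442 in monoculture. Co-culture lay below both other groups, and TGF-β library 2 reached just above monoculture library 1. Ccl4 fell in co-culture against monoculture (−1.16 ± 0.13, adjusted p = 1.46e-05) and against TGF-β (−0.72 ± 0.13, adjusted p = 0.00119). With TGF-β against monoculture it was at −0.44 ± 0.13 (95% interval −0.73 to −0.16), with an adjusted p of 0.111, and without TGF-β library 2 at −0.59 (adjusted p = 0.0299).

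Of the Ccr1 ligands Ccl9 and Ccl6, only Ccl9 was called, and the difference between the genes was not tested. Ccl9 (ENSMUSG00000019122, chr11:83572919-83578636, minus strand) had 64380.3, 53847 and 90672 normalized counts in co-culture, 146976, 139374 and 118259 with TGF-β, and 154669, 136422 and 160607 in monoculture. All co-culture libraries lay below all others, and TGF-β and monoculture overlapped. Ccl9 fell in co-culture against monoculture (−1.14 ± 0.16, adjusted p = 1.21e-04) and against TGF-β (−0.98 ± 0.16, adjusted p = 5.8e-04), and TGF-β against monoculture gave −0.16 ± 0.16 (95% interval −0.51 to 0.19).

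Ccl6, 9245 bases from Ccl9 (ENSMUSG00000018927, chr11:83587882-83593087, minus strand), had 45140.1, 41200.3 and 88489.9 normalized counts in co-culture, 50398, 45585 and 38492 with TGF-β, and 104420.4, 60715 and 87455 in monoculture. Co-culture library 3 lay apart from the other co-culture libraries and within the monoculture range, and all TGF-β libraries lay below monoculture. Co-culture against monoculture was −0.58 ± 0.31 (95% interval −1.31 to 0.14, adjusted p = 0.211). Without co-culture library 3 it was −0.93 (adjusted p = 0.00563), and TGF-β against monoculture, −0.88 ± 0.31 (adjusted p = 0.231), then had an adjusted p of 0.0293.

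The neutrophil attractant Cxcl2 had the largest fold change of the 10 in co-culture, against monoculture and against TGF-β alike. It (ENSMUSG00000058427, chr5:90903871-90905938, plus strand) had 758, 376 and 589 normalized counts in co-culture, 1713, 986 and 1538 with TGF-β, and 2173, 1521 and 2831 in monoculture. Co-culture lay below the other groups, which overlapped. Cxcl2 fell in co-culture against monoculture (−1.91 ± 0.32, adjusted p = 0.0017) and against TGF-β (−1.30 ± 0.32, adjusted p = 0.017), although the second call was lost without TGF-β library 1 (−1.14, adjusted p = 0.0516) or library 3 (−1.22, adjusted p = 0.0643). TGF-β against monoculture gave −0.61 ± 0.32 (adjusted p = 0.430). Of its exon sequence, 5.84% of 50-base words also occur in Cxcl3, which averaged 28.9 normalized counts in co-culture, 38.8 with TGF-β and 54.5 in monoculture.

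The interferon-induced ligand Cxcl10 was the lowest of the 10, with 61 reads in its lowest library. It (ENSMUSG00000034855, chr5:92346638-92348889, minus strand) had 131, 132 and 79.7 normalized counts in co-culture, 167, 164 and 139 with TGF-β, and 110.4, 88.6 and 116 in monoculture. Co-culture and monoculture overlapped, and every TGF-β library was above every other library. No comparison passed: co-culture against monoculture gave 0.09 ± 0.24 (95% interval −0.43 to 0.61), TGF-β against monoculture 0.54 ± 0.24 (adjusted p = 0.317), and co-culture against TGF-β −0.45 ± 0.24 (95% interval −0.97 to 0.07). Its antisense partner Art3 reached 31.3 normalized counts in co-culture, 2.19 with TGF-β and 3.10 in monoculture in the highest libraries, and reads of Cxcl10 and Art3 cannot be told apart.

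Cxcl14 and Cxcl16 were the ligands that rose. Cxcl14 (ENSMUSG00000021508, chr13:56288643-56296551, minus strand) had 5928, 5209.6 and 6137 normalized counts in co-culture, 5745, 7449 and 4820.0 with TGF-β, and 1812, 2431 and 1371 in monoculture. The co-culture and TGF-β libraries overlapped and all lay above monoculture. Cxcl14 rose in co-culture (1.65 ± 0.21, adjusted p = 1.79e-04) and with TGF-β (1.69 ± 0.21, adjusted p = 0.00289) against monoculture. The difference between co-culture and TGF-β was −0.04 ± 0.21 (95% interval −0.51 to 0.43).

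Cxcl16, a membrane-bound ligand that is also a scavenger receptor (ENSMUSG00000018920, chr11:70453983-70459984, minus strand), had 14109, 14385 and 12401 normalized counts in co-culture, 10494, 10426 and 8801 with TGF-β, and 5258, 5774 and 5027 in monoculture. The 3 groups did not overlap. Cxcl16 rose in co-culture against monoculture (1.35 ± 0.09, adjusted p = 8.26e-08), with TGF-β against monoculture (0.88 ± 0.09, adjusted p = 2.12e-04) and in co-culture against TGF-β (0.46 ± 0.09, adjusted p = 0.00224). The antisense gene Zmynd15 reached at most 621, 382 and 199.9 normalized counts in co-culture, TGF-β and monoculture, and the genes overlapping Ccl2 and Ccl6 did not exceed 57.3.

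**Figure D2:**
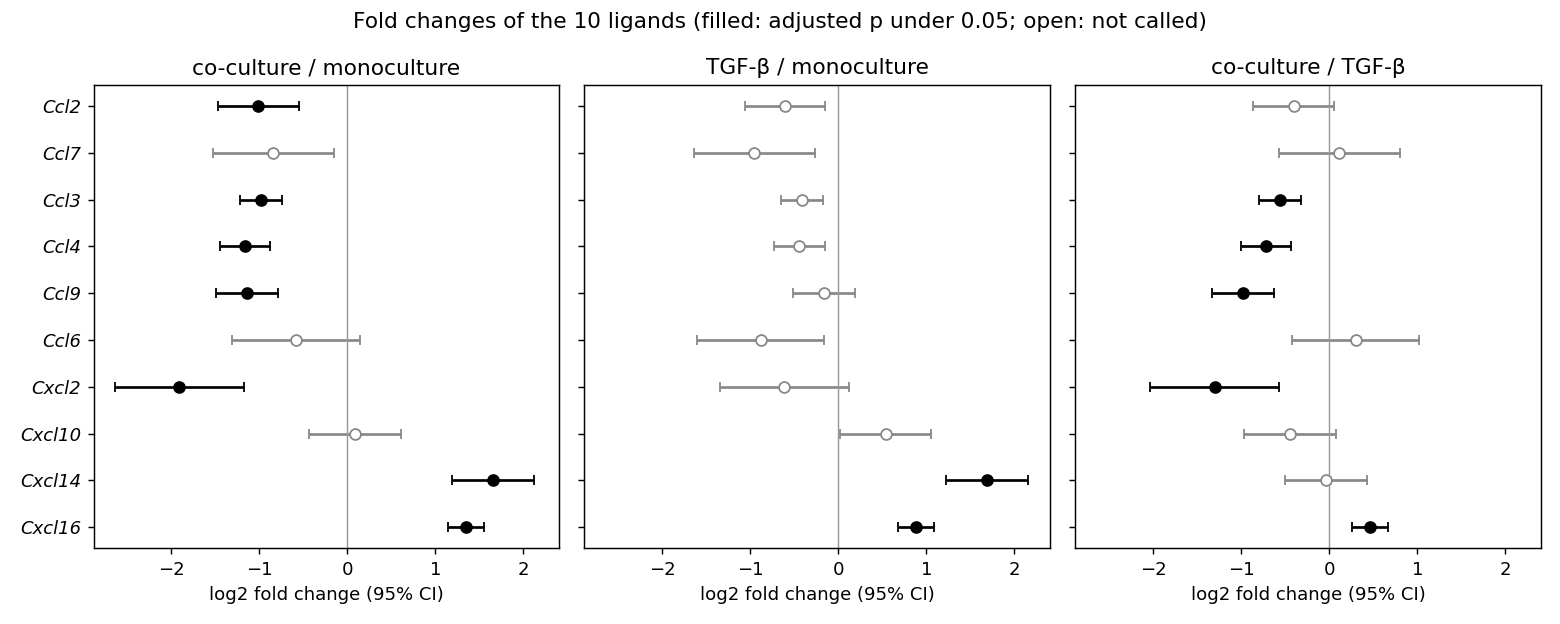
Log2 fold change of each ligand (point) with its 95% interval (line) for co-culture over monoculture, TGF-β over monoculture and co-culture over TGF-β, filled where adjusted p was under 0.05. Filled points stand for 7, 2 and 5 ligands in the 3 panels, in that order of comparison.

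Counted over the set, 8 of 10 ligands did not overlap between co-culture and monoculture, 6 below and 2 above, against 45% of all genes tested (21.7% below and 23.3% above). For TGF-β against monoculture 2 of 10 were called, both higher, where 2.52% of all genes were called, 1.13% higher and 1.39% lower. At an unadjusted p under 0.05, 5 ligands were lower with TGF-β, against 7.96% of all genes. DESeq2 called 3 of them, with 907 of all genes called, and edgeR called none. Without TGF-β library 2 limma called 3 of them, for 5 ligands in all, with 247 of all genes called. The share of all genes called rested on single libraries, with 412 genes called in all, 165 without TGF-β library 1 and 939 without library 3. In 6 of 10 ligands the TGF-β and monoculture libraries did not overlap, 3 above and 3 below, against 16.9% of all genes, 7.27% above and 9.64% below. For co-culture against TGF-β 5 of 10 were called, 4 lower and 1 higher, against 25.3% of all genes, 11.9% lower and 13.4% higher. Between co-culture and TGF-β 6 did not overlap, 5 below and 1 above, against 41% of all genes, 19.8% below and 21.3% above. The ligands' median log2 fold change was −0.91 in co-culture and −0.43 with TGF-β, each against monoculture, beside 0.03 and −0.01 over all genes tested. For co-culture against TGF-β it was −0.43, beside 0.01. The first 2 comparisons share the monoculture libraries. Reads of the 10 ligands together made up 0.173% to 0.251% of a co-culture library, 0.221% to 0.263% of a TGF-β library and 0.338% to 0.356% of a monoculture library. In bulk RNA, fewer cells making a transcript and less of it per cell cannot be told apart.

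Levels can be compared between genes only per length, here as mean normalized counts per kilobase of exon. Exon lengths came from GENCODE M21, while the annotation used for counting is not given, and the order depends on these lengths. Before division by length, Ccl9 had the highest mean in monoculture (150566 normalized counts, against 82808 for Ccl2). In monoculture Ccl2 (101855) was highest, followed by Ccl6 (58470.0), Ccl9 (50089) and Ccl7 (41238), then by Ccl3 (15766) and Ccl4 (10696), and Cxcl10 was last (69.1). The ranges over libraries of Ccl6, Ccl9 and Ccl7 overlapped, and that of Ccl2 lay above them. In co-culture Ccl2 (50703) and Ccl6 (40470.0) again led, with overlapping ranges, and Cxcl16 (5051) stood within the range of Ccl4 (4778). In monoculture Cxcl16 (1983) stood below Ccl4 with no overlap. Cxcl14 stood above Cxcl2 in co-culture (3152 against 309) and with TGF-β (3287 against 759.7), without overlap, and in monoculture its range overlapped that of Cxcl2 (1024 against 1169.8).

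**Figure D3:**
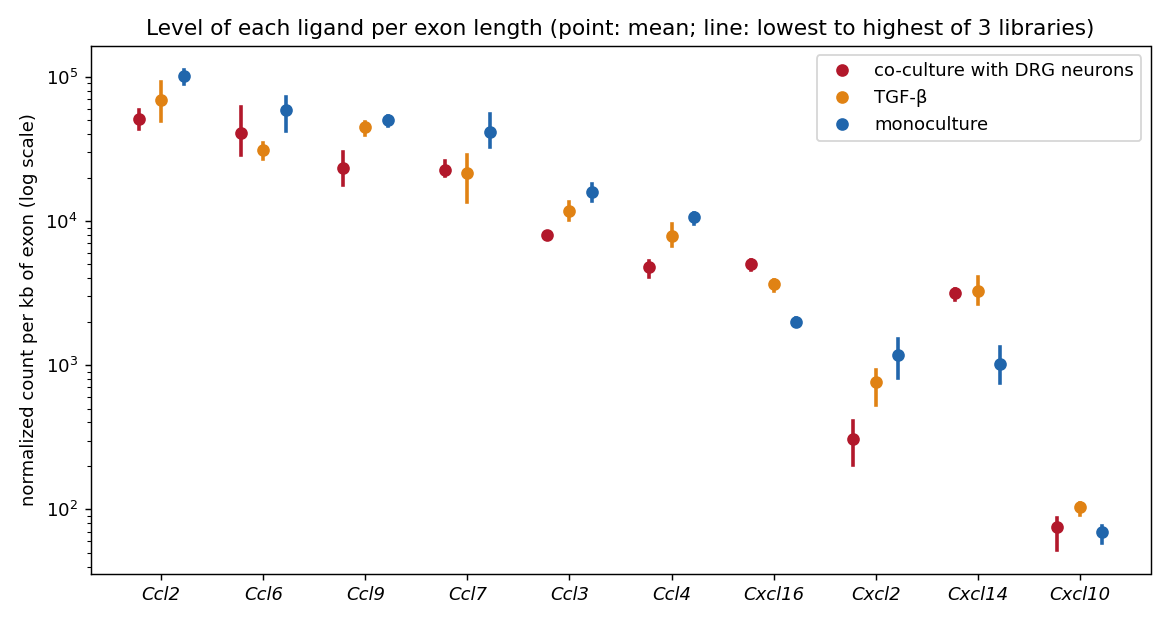
Mean normalized count per kilobase of exon (log axis) of each ligand in co-culture, TGF-β and monoculture, with a line over the 3 libraries. Ccl2 has the highest mean in each group, at 50703 in co-culture, 68898 with TGF-β and 101855 in monoculture, and Cxcl10 the lowest.

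Among the neighboring pairs, only the ratio of Ccl9 to Ccl6 set all 3 groups apart. The ratio of Ccl9 to Ccl6 was 1.43, 1.31 and 1.02 in co-culture, 2.92, 3.06 and 3.07 with TGF-β, and 1.48, 2.25 and 1.84 in monoculture. The 3 groups of ratios did not overlap, with TGF-β highest and co-culture lowest. The ratio of Ccl2 to Ccl7 was 2.11, 2.45 and 2.29 in co-culture, 2.88, 3.28 and 3.71 with TGF-β, and 2.97, 2.05 and 2.77 in monoculture, with monoculture overlapping both. The ratio of Ccl3 to Ccl4 overlapped between all groups, at 2.24, 1.82 and 1.80 in co-culture, 1.84, 1.64 and 1.74 with TGF-β and 2.18, 1.60 and 1.43 in monoculture, and in each group replicate 1 was highest. The ratios were described, not tested.

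**Figure D4:**
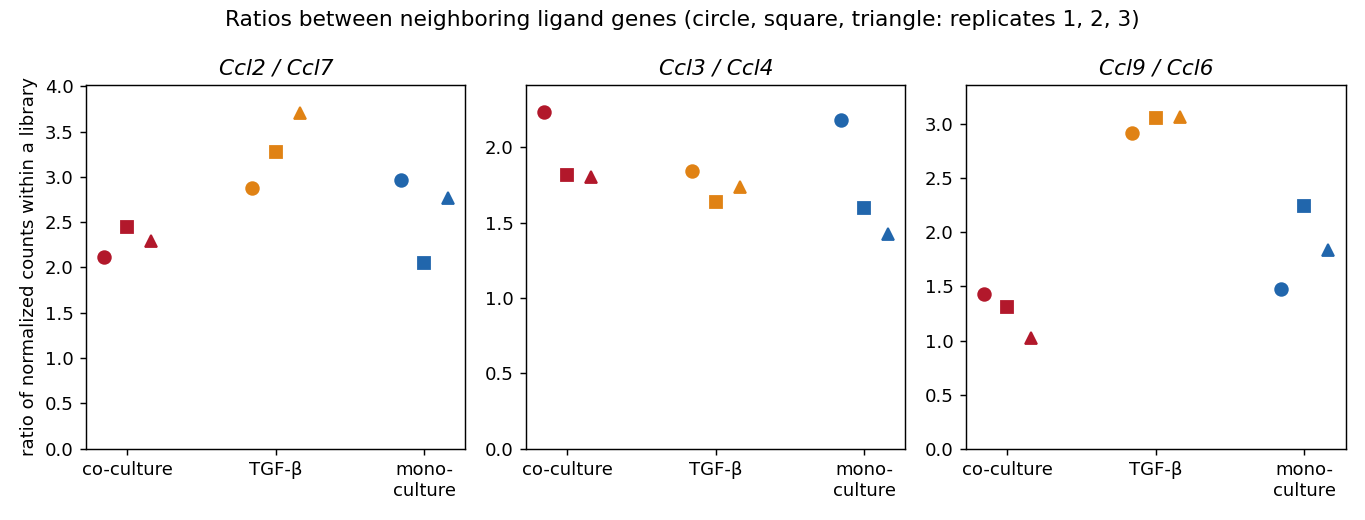
Ratio of normalized counts within a library for Ccl2 over Ccl7, Ccl3 over Ccl4 and Ccl9 over Ccl6, with a symbol per replicate number. Ccl9 over Ccl6 runs between 1.02 and 1.43 in co-culture, 2.92 and 3.07 with TGF-β, and 1.48 and 2.25 in monoculture.

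Across the 9 libraries, which share their groups, Ccl2, Ccl3 and Ccl4 tracked each other on the log2 scale (Pearson r 0.92 to 0.93 for the 3 pairs). Ccl9 tracked Cxcl2 (0.89), Ccl4 (0.89) and Ccl3 (0.88) about equally, Ccl2 tracked Ccl7 (0.86), and Cxcl14 tracked Cxcl16 (0.91). Among 10296 other genes compared, the patterns most like Cxcl16 were those of Olfml3 (r = 0.998) and Inpp4b (0.992), and most like Cxcl14 those of Fads2 (0.991), a fatty acid desaturase, and Hpgd (0.978), which breaks down prostaglandins. The nearest to Ccl3 were Lims1 (0.993) and Gars (0.985), to Ccl4 Cdkn2b (0.991) and Glipr2 (0.983), to Ccl9 Ociad2 (0.993) and Csgalnact2 (0.99), and to Ccl2 Hsp90aa1 (0.977) and Odc1 (0.973). Cxcl2 was nearest to Ubap1 (0.984) and Mndal (0.983), Cxcl10 to Csrp2 (0.960) and Churc1 (0.932), Ccl7 to Slc33a1 (0.950) and Spsb4 (0.949), and Ccl6 to Ppbp (0.937), another chemokine, and Oxsr1 (0.896). These are descriptions over libraries that differ by group.

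Of the 31 other chemokine ligands listed, 19 were in the table and 14 were tested. In co-culture against monoculture 5 rose and 3 fell, beside 15.9% higher and 15% lower of all genes tested. The median of the 14 was −0.10 on the log2 scale (0.03 over all genes), but only 2 of the 5 that rose passed the minimum level outside co-culture. Ccl12, a Ccr2 ligand, had 5262, 6796 and 7906 normalized counts in co-culture, 1504, 3252 and 1316 with TGF-β, and 1674, 3056 and 1828 in monoculture. It rose in co-culture against monoculture (1.63 ± 0.39, adjusted p = 0.0167) and against TGF-β (1.81 ± 0.39, adjusted p = 0.013), and the first call was lost without co-culture library 2 (adjusted p = 0.0594) or 3 (0.0607) and the second without library 2 (0.0524). The neutrophil attractant Cxcl1 fell in co-culture (−2.31 ± 0.56, adjusted p = 0.00801), with 14.0 ± 10.3 normalized counts in co-culture, 61.5 ± 41.0 with TGF-β and 121 ± 76.1 in monoculture. Cx3cl1, the ligand of Cx3cr1, fell (−0.78 ± 0.18, adjusted p = 0.00434), and Ccl25 rose (0.58 ± 0.15, adjusted p = 0.00934), the last not without co-culture library 2 (0.0572). With TGF-β against monoculture limma and edgeR called 0 of the 14, DESeq2 called 1 lower, and 1 had an unadjusted p under 0.05. Against TGF-β, co-culture had 3 higher and 1 lower, beside 13.4% higher and 11.9% lower of all genes tested. Of the 3 higher, Ccl8 and Ccl11 passed the minimum level only through co-culture.

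Of 24 receptors listed, 11 were tested. In co-culture against monoculture 5 rose and 2 fell, with a median of 0.50, with TGF-β 3 rose and 0 fell, and co-culture against TGF-β had 4 higher and 2 lower. Of all genes tested, 30.8%, 2.52% and 25.3% were called in these comparisons, in that order, and the median in the first was 0.03. For TGF-β the lower receptors numbered 0 with edgeR and 1 with DESeq2, and 3 had an unadjusted p under 0.05. The fractalkine receptor Cx3cr1 rose in co-culture (4.91 ± 0.16, adjusted p = 3.33e-10) and with TGF-β (3.68 ± 0.16, adjusted p = 1.59e-07) against monoculture, and so did Cxcr4, which binds Cxcl12, in co-culture (3.06 ± 0.19, adjusted p = 3.94e-07) and with TGF-β (1.84 ± 0.19, adjusted p = 6.32e-04). Ccr1, the receptor of Ccl3, Ccl6 and Ccl9, stood at 35266 ± 4377 normalized counts in co-culture, 4817 ± 1078 with TGF-β and 6267 ± 562 in monoculture, and rose in co-culture against monoculture (2.49 ± 0.15, adjusted p = 1.23e-07). Ccr2, the receptor of Ccl2 and Ccl7, stood at 199 ± 39.1 normalized counts in co-culture, 416 ± 75.6 with TGF-β and 136 ± 6.96 in monoculture, and rose with TGF-β (1.53 ± 0.20, adjusted p = 0.00102). Cxcr3, the receptor of Cxcl10, fell in co-culture against monoculture (−2.38 ± 0.20, adjusted p = 5.61e-07). Cxcr2 and Cxcr6, the receptors of Cxcl2 and Cxcl16, were too low to test.

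Of 49 inducers and regulators of chemokine genes listed, 47 were tested. Of these, 45 passed the minimum level outside co-culture. In co-culture against monoculture 14 rose and 16 fell, with a median of 0.00, and with TGF-β 1 rose and 0 fell. Il1a and Il1b, among those that rose in co-culture, passed the minimum level only through co-culture. For TGF-β the lower regulators numbered 0 with edgeR and 1 with DESeq2, and 7 had an unadjusted p under 0.05. Of all genes tested, 30.8% were called for co-culture (median 0.03) and 2.52% for TGF-β, each against monoculture. Atf3, a stress-response transcription factor, fell in co-culture (−1.74 ± 0.11, adjusted p = 3.96e-08), as did Irf7, an interferon regulatory factor (−2.14 ± 0.15, adjusted p = 7.26e-08), and Tnf (−0.76 ± 0.14, adjusted p = 6.78e-04). The receptor Tlr2 rose in co-culture (1.19 ± 0.11, adjusted p = 2.09e-06) and with TGF-β (0.71 ± 0.11, adjusted p = 0.00425). Il1b averaged 263 normalized counts in co-culture and 10.7 with TGF-β and was at 0 in all 3 monoculture libraries. Of 15 proteases that act on chemokines, all tested, 6 rose and 6 fell in co-culture against monoculture and 1 each with TGF-β. Of the 15, 13 passed the minimum level outside co-culture, and Mmp2 and Ctsg, which rose in co-culture, did not. The membrane metalloproteinase Mmp14 rose in co-culture (8.09 ± 0.14, adjusted p = 7.59e-14) and with TGF-β (1.99 ± 0.14, adjusted p = 6.8e-06). Mmp2, which passed the minimum level only through co-culture, averaged 939.6 ± 128.5 normalized counts in co-culture, 19.7 ± 28.3 with TGF-β and 4.19 ± 0.955 in monoculture. The cathepsin Ctsk (−2.14 ± 0.20, adjusted p = 1.58e-06) and the aminopeptidase Anpep (−0.81 ± 0.11, adjusted p = 4.65e-05) fell in co-culture. Adam10, which releases Cxcl16 from the membrane, rose in co-culture against monoculture (0.55 ± 0.10, adjusted p = 4.81e-04), with 32069 ± 965 normalized counts in co-culture, 21733 ± 1709.5 with TGF-β and 21956 ± 2541 in monoculture.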

How the data were processed

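RNA of sorted macrophages was sequenced in 9 libraries, made from 10 ng RNA with a stranded kit, as the labels' protocols state. Per gene and library, the deposited file holds a signal value, called a normalized count here. The numbers themselves show gene reads over 1 size factor per library, since 100% of values were whole multiples of the value of 1 read (within 0.05). Size factors were recomputed from those reads as the median over genes of reads divided by the gene's geometric mean across libraries. They differed by a relative 1.16e-09 at most. In these libraries 1 read was worth 0.346 to 2.27 normalized counts. The submitters' processing notes name build mm10, R 3.6.1, DESeq2 1.24.0, STAR 2.7.3 and bcl2fastq 2.20. How reads were counted, by strand or not, on which annotation and with which filters is not given in the sources used here. Reads of antisense partners therefore cannot be told apart. Of the identifiers, 24335 of 24607 matched GENCODE M21.

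A gene entered the test when 3 or more libraries reached a value of 10 (16328 genes). The test was limma 3.58.1 in R 4.3.3 (trend, robust) on log2(value + 10), all 9 libraries in 1 fit, with Benjamini-Hochberg adjustment. The added 10 makes changes of low genes smaller, so fold changes are on that scale. The design text names 3 mice as the source but not which library came from which, so p-values measure the spread between libraries, which may be partly technical. Alternatives were edgeR 4.0.16 and DESeq2 1.42.0 on recovered reads, other scalings, filters, added values and left-out libraries; the procedure was tested on simulated data. The ligands and the lists (other ligands, receptors, inducers and regulators, proteases, cell type markers) were chosen with earlier results of these data known, and so was the rule for named genes: every ligand, the 4 of smallest p in co-culture against monoculture per list of ligands, receptors, regulators and proteases among genes averaging at least 100 in a group, the ligands' receptors (of which 1 is not reported here), other called list genes, and the 2 genes of most similar pattern. Motifs were searched in RefSeq promoters.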

Additional observations from a re-analysis of the deposited data

How the results depend on the processing

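Over 20 alternatives, 7 or 8 ligands were called for co-culture against monoculture and 4 or 5 for co-culture against TGF-β; leaving out 1 library gave the same ranges. TGF-β against monoculture ranged from 2 to 5. It was 5 with DESeq2 (907 of all genes called), which added Ccl2 (−0.56), Ccl3 (−0.41) and Ccl4 (−0.43). Without 1 library it was between 2 and 5, with 5 without TGF-β library 2 (247 of all genes called). The cause was not tested. Of 200 ligand values per comparison, 190, 191 and 193 kept direction and call. Ccl7 in co-culture against monoculture was also called without the filter (adjusted p = 0.0433), without robust fitting (0.0202) and with only the groups compared (0.0161), which called Ccl6 for TGF-β too (0.0487). Directions reversed only for values not called: Cxcl10 in co-culture against monoculture was −0.020 without co-culture library 1, −0.027 without co-culture library 2 and −0.021 without monoculture library 2, and ranged from −0.027 to 0.30 without 1 library. In co-culture against TGF-β, Ccl6 was −0.047 without co-culture library 3 (range −0.047 to 0.50), Ccl7 −0.19 without TGF-β library 3 (range −0.19 to 0.35), and Cxcl14 0.030 without co-culture library 2 and 0.13 without TGF-β library 2 (range −0.19 to 0.13). All genes called numbered 3909 to 5464, 165 to 939 and 2959 to 4601 in the 3 comparisons.

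Replicate numbers did not consistently mark libraries that deviated alike. Over 9 same-numbered pairs, deviations from the group means correlated at −0.147 to 0.372, 3 of them above 0.1. Of 9 libraries, 1 correlated best with its own number in each of the other groups. With 3 libraries a group, whose deviations depend on each other, these values cannot decide whether libraries of the same number share mice. With the replicate number as a block, 7, 3 and 5 ligands were called, the added one being Cxcl2 for TGF-β (−0.61, adjusted p = 0.0351). The block fit called 4926 of all genes for co-culture against monoculture. For TGF-β against monoculture, all genes called ran from 165 to 939 over the alternatives. Cxcl10, with 61 reads in its lowest library, is the ligand for which depth limits precision most.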

Other observations

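Libraries of a group did not deviate alike over the ligands. TGF-β library 3 was the lowest of its group for 9 of the 10 ligands, against 39.3% of all genes tested, and co-culture library 3 was the highest of its group for 7 of the 10, against 37.1% of all genes. The coefficient of variation over the 3 libraries ran between 3.26% (Ccl3) and 45.0% (Ccl6) in co-culture, between 9.67% (Cxcl16) and 35.2% (Ccl7) with TGF-β, and between 7.15% (Cxcl16) and 30.1% (Cxcl2) in monoculture.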
